A study of Homo sapiens with 6 samples.

Results

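Glucose enters a cell through facilitative transporters of the SLC2A (GLUT) family, and a hexokinase then adds a phosphate to it, which keeps it inside and commits it to metabolism. The 9 genes described here are 6 transporters (SLC2A1, SLC2A2, SLC2A3, SLC2A4, SLC2A8 and SLC2A10) and 3 hexokinases (HK1, HK2 and HKDC1). They were taken by symbol from the 60675 Ensembl genes that the count files hold, and each symbol matched 1 identifier. In hepatocytes, glucose passes through the low-affinity transporter GLUT2 (SLC2A2), which also lets it out, whereas many liver tumors rely on the high-affinity transporters GLUT1 (SLC2A1) and GLUT3 (SLC2A3) and on hexokinase 2 (HK2). The comparison therefore addresses the level of each gene and the balance between the liver type and the tumor types, in control cells and after MTR4 knockdown.

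The 6 libraries came from PLC/PRF5, a line established from a human hepatocellular carcinoma and grown in DMEM with fetal bovine serum. By genotype, 3 libraries were control and 3 were MTR4 KD, and the paper describes the RNA-seq as made before and after an inducible knockdown by a doxycycline-driven shRNA. The treatment text in the labels is the same for all 6 libraries and, controls included, reads as a knockdown of MTR4. The methods give a single shRNA target sequence for MTR4, while the supplement reports growth, colony and ATP assays with another MTR4 shRNA as well. No library of doxycycline-treated cells with a scramble shRNA was analysed here, so doxycycline and the knockdown cannot be told apart in these libraries. In separate mRNA measurements, the paper reports no effect of doxycycline on glycolytic genes in cells with an inducible scramble shRNA. The labels do not say whether the replicates were separate cultures, so the p-values measure the spread between these libraries, which may be technical.

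Each library had from 60686786 to 72708682 reads on genes. Reads with a non-unique alignment, which were not counted on genes, made up 34.7% to 37.5% of all entries in 3 libraries (control 1, control 3 and MTR4 KD 3), and 14.8% to 18.2% in the other 3 libraries. Replicates of a group differed in their counts by a chi-square of at most 8.15 per degree of freedom where both had a similar share, and of at least 85.7 otherwise. No library thus repeated another, and the libraries stood apart by this share. It came with each group unevenly, in 2 of 3 control and 1 of 3 MTR4 KD libraries. Differences are therefore also given among the libraries high in non-unique reads, among those low in them, and for a fit with this share as a 2-level term. Among the high libraries MTR4 KD 3 is the only MTR4 KD library, and among the low ones control 2 is the only control. The differences within each set thus rest on a single library in 1 of the groups. Hepatocyte genes were abundant, with 7 markers summing to 23660 to 25120 CPM (counts per 1e6 reads after TMM scaling) in control and 23740 to 25590 CPM in MTR4 KD libraries. Of these 7, 3 rose, against 1.48% of all tested genes. ALB, APOA1, TTR and FGB were each higher in every MTR4 KD library than in any control library, as were 12.1% of all tested genes. For APOB, TF and SERPINA1 the groups overlapped. The most abundant, SERPINA1, was at 11460, 9258 and 11010 CPM for control and 8406, 8816 and 10210 CPM for MTR4 KD. The 3 epithelial markers summed to 1772 to 2007 CPM in control and 1585 to 1614 CPM in MTR4 KD libraries, and 1 of them fell, against 2.12% of all tested genes. The part of these shifts in the results was not tested. Summed markers of fibroblasts, endothelium and blood that matched a counted gene reached at most 7.31, 0.538 and 2.32 CPM. MTR4 itself (symbol MTREX) stood at 72.2, 87.4 and 74.4 CPM for control, against 44.6, 48.8 and 44.1 CPM for MTR4 KD (replicates 1, 2 and 3). Every library followed its label, with a log2 difference of -0.77 (adjusted p = 0.00641, edgeR).

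The promoter sequences of 4 of these genes, picked by how their levels differed, are shown first, because SLC2A1 and HK2 were lower in MTR4 KD cells while SLC2A2 and HKDC1 were not. Each is the 250 bases before the start of the gene in RefSeq (GRCh38.p14), 5′ to 3′ on the strand of the gene. Capitals mark the letters ACGTG or GCGTG (the core of the hypoxia response element), CCAAT (the CCAAT box) and TATAAA (the TATA box), on either strand. The windows are chr1:42958869-42959118 on the minus strand for SLC2A1, chr2:74833877-74834126 on the plus strand for HK2, chr3:171026721-171026970 on the minus strand for SLC2A2 and chr10:69220082-69220331 on the plus strand for HKDC1.
SLC2A1: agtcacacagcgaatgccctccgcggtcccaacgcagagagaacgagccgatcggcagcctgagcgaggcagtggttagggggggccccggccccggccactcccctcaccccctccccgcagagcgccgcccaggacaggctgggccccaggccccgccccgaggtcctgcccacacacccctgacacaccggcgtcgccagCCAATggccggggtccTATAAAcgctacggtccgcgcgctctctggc
HK2: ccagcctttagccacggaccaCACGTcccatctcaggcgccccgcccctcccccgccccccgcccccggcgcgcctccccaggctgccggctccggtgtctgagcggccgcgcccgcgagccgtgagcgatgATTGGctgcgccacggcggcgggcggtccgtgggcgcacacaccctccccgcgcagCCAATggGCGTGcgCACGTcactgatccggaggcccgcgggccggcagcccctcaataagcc
SLC2A2: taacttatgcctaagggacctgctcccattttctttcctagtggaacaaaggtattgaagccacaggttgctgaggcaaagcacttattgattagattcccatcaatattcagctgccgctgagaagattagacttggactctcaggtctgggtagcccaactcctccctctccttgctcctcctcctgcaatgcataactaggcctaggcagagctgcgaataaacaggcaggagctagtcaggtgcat
HKDC1: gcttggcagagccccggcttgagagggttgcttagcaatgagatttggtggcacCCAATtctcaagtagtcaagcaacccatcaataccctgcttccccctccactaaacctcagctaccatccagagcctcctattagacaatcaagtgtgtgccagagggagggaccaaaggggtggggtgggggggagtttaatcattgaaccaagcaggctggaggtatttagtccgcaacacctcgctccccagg
The window of SLC2A1 held 1 CCAAT and 1 TATAAA and no hypoxia core. That of HK2 held 2 CCAAT, 2 ACGTG and 1 GCGTG. The window of SLC2A2 held none of these letters, and that of HKDC1 held 1 CCAAT. Of all 35116 windows of this length, 32.0% held CCAAT, 10.7% TATAAA and 43.2% ACGTG or GCGTG, so each of these is a common run of letters. The GC content was 72.4% and 76.8% in the windows of SLC2A1 and HK2, and 48.8% and 54.4% in those of SLC2A2 and HKDC1. The windows at the start of SLC2A8 and HK1 held 3 CCAAT and none of these letters, with a GC content of 65.2% and 46.8%. HK1 had 7 windows at different starts, and their GC content ranged from 45.6% to 74.0%. The window at 74.0% (chr10:69318814-69319063) held 1 GCGTG, and no other window of HK1 held ACGTG or GCGTG. The window of SLC2A10, at another of its starts, held 1 ACGTG, and its GC content was 76.8%. Another window of HK2, at a start inside the gene, held 2 GCGTG and 2 CACGTG. Each CACGTG reads the same on both strands, so these sites gave 4 counts of ACGTG. These counts are a description, with no test of the genes that fell against the others. SLC2A3 and SLC2A4 had no window in the table used here.

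All 9 genes passed edgeR's filter on low counts. With an adjusted p-value (Benjamini-Hochberg over all 18075 tested genes) under 0.05, 3 of them were lower in MTR4 KD libraries and 0 were higher. Of all tested genes, 2.12% were lower and 1.48% higher by the same rule, or 3.6% in either direction. The genes that fell were SLC2A1, SLC2A3 and HK2. At an unadjusted p under 0.05, 6 of the 9 were lower and 1, SLC2A2, was higher, where 9.84% and 8.93% of all tested genes were. DESeq2's Wald test called 5 lower and 0 higher, against 4.72% and 3.64% of the genes to which it gave an adjusted p. With limma-voom the numbers were 3 and 0, against 2.0% and 1.38%. Without control replicate 1, or without MTR4 KD replicate 2, SLC2A1 was the 1 gene of the list still called. Calls over all genes fell in these runs as well, to 99 of 18691 and 85 of 18623 tested genes lower, against 383 of 18075. In bulk RNA, fewer cells of a kind and less RNA per cell cannot be told apart. The median log2 fold change was -0.52 over the 9 genes and 0.01 over all tested genes. With the term for non-unique reads 6 were lower and 1, SLC2A2, was higher, where 10.8% and 9.43% of all tested genes were called, or 20.2% in either direction. In 6 of the 9 genes every MTR4 KD library lay below every control library, and in 0 every MTR4 KD library lay above. Of all tested genes, 12.6% were separated with MTR4 KD lower and 12.1% with it higher, or 24.7% in either direction. SLC2A10 passed the filter on low counts through its control libraries, so its place among the lower genes was favored by the filter. Of the other 8 genes, 5 were separated, 5 were lower at an unadjusted p under 0.05, 5 with the term and 4 with DESeq2.

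**Figure D1:**
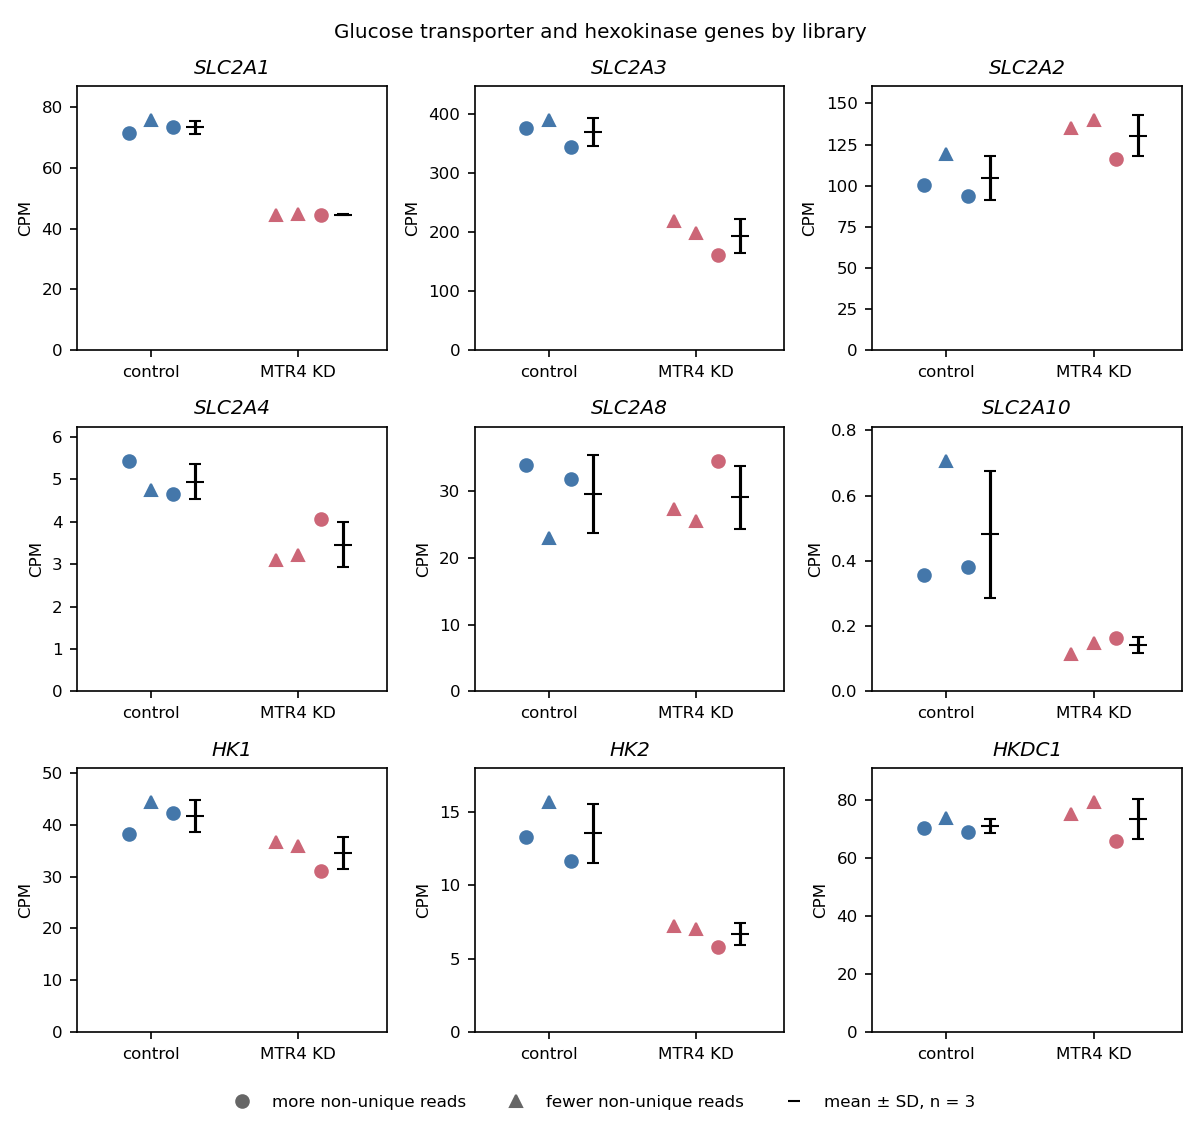
TMM-scaled CPM of each gene in every library, with linear axes that start at 0. Circles are libraries with more and triangles libraries with fewer non-unique reads, and black bars are the mean ± SD of 3 libraries. SLC2A1, SLC2A3, HK1, HK2, SLC2A4 and SLC2A10 separate the groups, while SLC2A2, SLC2A8 and HKDC1 overlap.

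SLC2A1 encodes GLUT1, the high-affinity transporter of red cells, the blood-brain barrier and many tumors, and its gene (ENSG00000117394) spans 42925353 to 42958868 of chromosome 1 in GRCh38. It was at 71.2, 75.5 and 73.3 CPM in control replicates 1, 2 and 3, against 44.5, 44.9 and 44.3 CPM in the MTR4 KD replicates in that order. The MTR4 KD libraries agreed within 1 CPM and all lay well below the control libraries. The log2 fold change was -0.72 (95% interval -0.85 to -0.59, adjusted p = 0.00105, edgeR), a level 0.608 times that of control cells. Among the libraries high in non-unique reads it was -0.71, and among those low in them -0.76. Of the listed genes, SLC2A1 had the smallest standard error, 0.0545 on the log2 scale. Counts per gene add up all transcripts of SLC2A1, so its splice forms could not be told apart here.

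SLC2A3 encodes GLUT3, the main glucose transporter of neurons, which many tumors also express, and lies on chromosome 12 from 7919230 to 7936187 (ENSG00000059804). It had more reads than any other gene of the list, at 376.9, 389.4 and 344.1 CPM in control replicates 1, 2 and 3, against 219.8, 199.5 and 162.0 CPM in the MTR4 KD replicates in that order. No MTR4 KD library came near the lowest control library. The log2 fold change was -0.93 (95% interval -1.20 to -0.66, adjusted p = 0.00804, edgeR), with -1.15 among the libraries high in non-unique reads and -0.90 among those low in them. Without control replicate 1 the adjusted p was 0.0505, and without MTR4 KD replicate 2 it was 0.0543, with log2 fold changes of -0.92 and -0.96. SLC2A14, its close neighbor and duplicate on chromosome 12, was counted apart at 1.70 to 1.93 CPM in control and 1.79 to 2.31 CPM in MTR4 KD libraries. Reads that fit both genes equally well were not counted on either, so the split between SLC2A3 and SLC2A14 is uncertain.

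SLC2A2 encodes GLUT2, the transporter of hepatocytes and pancreatic beta cells, and lies on chromosome 3 from 170996347 to 171026720 (ENSG00000163581). Its values were 100.3, 119.4 and 93.9 CPM for control, against 135.2, 139.6 and 116.3 CPM for MTR4 KD (replicates 1, 2 and 3). The groups overlapped, since control replicate 2 was above MTR4 KD replicate 3. Its log2 fold change was 0.32 (95% interval 0.06 to 0.58) and did not pass the test (adjusted p = 0.182, edgeR). Libraries with fewer non-unique reads were the higher ones in both groups, and the difference was 0.26 among those high in such reads and 0.20 among the others. With the term for non-unique reads the log2 fold change was 0.23 (95% interval 0.14 to 0.33) and passed the test (adjusted p = 0.00223, edgeR).

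The other 3 transporters were less abundant. SLC2A8 encodes GLUT8, which resides mostly on membranes inside the cell (ENSG00000136856, chromosome 9). Its values were 33.9, 23.0 and 31.9 CPM for control, against 27.4, 25.6 and 34.5 CPM for MTR4 KD (replicates 1, 2 and 3). They followed the share of non-unique reads rather than the group, with the lowest value in control replicate 2. The log2 fold change was -0.02 with a 95% interval of -0.42 to 0.38 (adjusted p = 0.957, edgeR), and 0.13 with the term for non-unique reads (adjusted p = 0.151, edgeR).

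SLC2A4 encodes GLUT4, the insulin-responsive transporter of muscle and fat (ENSG00000181856, chromosome 17). It was at 5.42, 4.75 and 4.66 CPM in control replicates 1, 2 and 3, against 3.10, 3.22 and 4.06 CPM in the MTR4 KD replicates in that order. The groups did not overlap, but the log2 fold change of -0.52 did not pass the test (adjusted p = 0.113, edgeR). It did with the term for non-unique reads, at -0.45 (adjusted p = 0.0200, edgeR). SLC2A10 encodes GLUT10, whose loss causes arterial tortuosity (ENSG00000197496, chromosome 20). It had only 22, 51 and 23 reads in control, against 7, 10 and 10 reads in MTR4 KD libraries. Its log2 fold change was -1.75 with a wide 95% interval of -2.70 to -0.80 (adjusted p = 0.0702, edgeR). It passed the filter on low counts through its control libraries, so a difference in this direction was favored by the filter itself.

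HK2 is the inducible hexokinase of muscle and many tumors, which binds to the outer membrane of mitochondria (ENSG00000159399, chromosome 2 from 74834127 to 74893359). It was at 13.3, 15.7 and 11.7 CPM in control replicates 1, 2 and 3, against 7.22, 7.07 and 5.84 CPM in the MTR4 KD replicates in that order. Every MTR4 KD library was far below the lowest control library. The log2 fold change was -1.01 (95% interval -1.34 to -0.69, adjusted p = 0.0112, edgeR), a level 0.495 times that of control cells, just past a fold change of 2. With an adjusted p under 0.05 and a fold change over 2, it was the 1 gene of the list called in the fit on condition alone, where 0.509% of all tested genes were lower by that rule. SLC2A3 was past that fold as well with the term for non-unique reads, at -1.02, and without MTR4 KD replicate 1, at -1.03. The log2 fold change of HK2 was -1.09 among the libraries high in non-unique reads and -1.13 among those low in them. Without control replicate 1, MTR4 KD replicate 1 or MTR4 KD replicate 2 the adjusted p of HK2 was 0.0615, 0.0512 and 0.0626 (edgeR). Its log2 fold change stayed between -1.11 and -0.90 with any library left out.

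HK1, the hexokinase that most tissues use, lies beside HKDC1 on chromosome 10, from 69270000 to 69401882 (ENSG00000156515). It was at 38.2, 44.3 and 42.3 CPM in control replicates 1, 2 and 3, against 36.7, 35.9 and 31.1 CPM in the MTR4 KD replicates in that order. The groups were separate by a small margin, between control replicate 1 and MTR4 KD replicate 1. A log2 fold change of -0.27 (95% interval -0.48 to -0.06) did not pass the test (adjusted p = 0.173, edgeR). With the term for non-unique reads it was -0.33 (adjusted p = 0.00135, edgeR). HKDC1, the hexokinase described last and named for its hexokinase domains, lies from 69220332 to 69267552 (ENSG00000156510). Its values were 70.6, 73.8 and 68.9 CPM for control, against 75.3, 79.2 and 65.8 CPM for MTR4 KD (replicates 1, 2 and 3), and MTR4 KD replicate 3 was below every control library. The fitted log2 difference was 0.05 with a 95% interval of -0.14 to 0.24 (adjusted p = 0.805, edgeR), so a change as large as that of HK2 lay outside this interval.

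**Figure D2:**
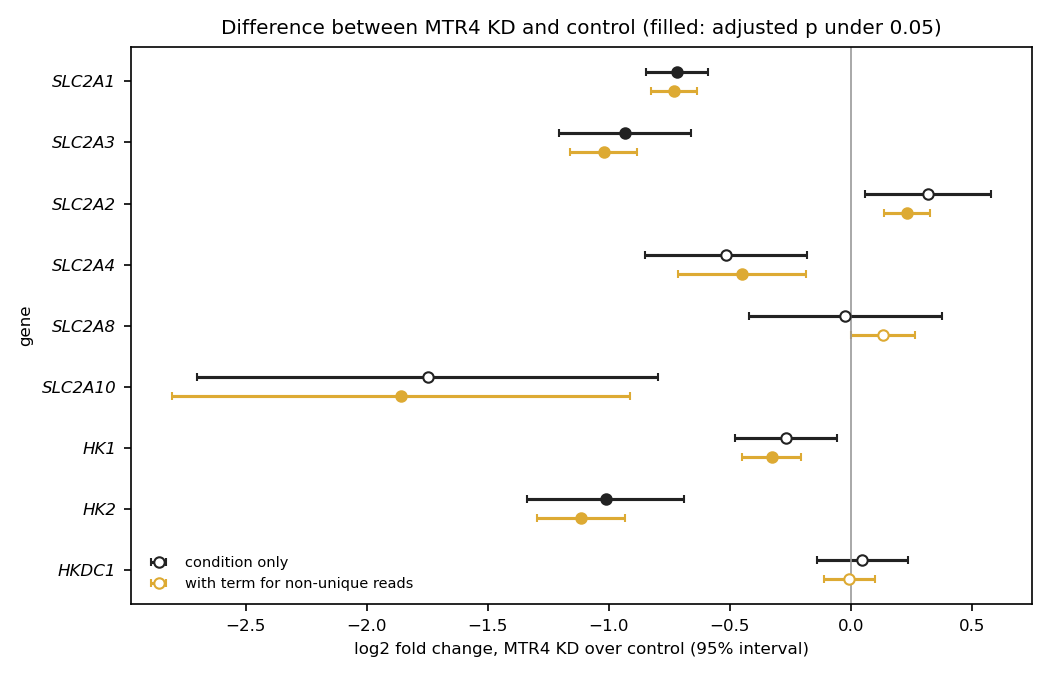
Log2 fold change of each gene, MTR4 KD over control, on the horizontal axis with its 95% interval, from the fit with condition only (black) and with the term for non-unique reads (yellow). Filled points have an adjusted p under 0.05. In black, SLC2A1, SLC2A3 and HK2 are filled, and in yellow SLC2A2, SLC2A4, SLC2A10 and HK1 are filled as well.

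Levels of different genes were compared per kilobase of annotated exon (CPM per kb). In the control libraries SLC2A3 was the most abundant transporter at 51.0 ± 3.23 CPM per kb, followed by SLC2A2 at 30.6 ± 3.89, SLC2A1 at 11.1 ± 0.322 and SLC2A8 at 7.54 ± 1.47 CPM per kb (SD, n = 3). SLC2A4 at 1.24 ± 0.103 and SLC2A10 at 0.0994 ± 0.0401 CPM per kb came last. No neighbors in this order overlapped between control libraries. In the MTR4 KD libraries SLC2A2 came first at 38.2 ± 3.62 CPM per kb and SLC2A3 second at 26.7 ± 4.04 CPM per kb, while SLC2A1 at 6.74 ± 0.0411 and SLC2A8 at 7.42 ± 1.20 CPM per kb overlapped. With the length of the longest coding transcript in place of all exons, SLC2A3 and SLC2A2 were at 45.9 ± 6.95 and 41.0 ± 3.88 CPM per kb in MTR4 KD libraries and overlapped, so which of them came first after the knockdown depended on the length used. In the control libraries SLC2A3 was above SLC2A2 with either length.

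HKDC1 was the most abundant of the 3 hexokinases in both groups, at 16.8 ± 0.583 CPM per kb in control and 17.4 ± 1.63 CPM per kb in MTR4 KD libraries. HK1 followed at 6.05 ± 0.448 and 5.03 ± 0.438 CPM per kb, and HK2 was lowest at 2.29 ± 0.337 and 1.13 ± 0.128 CPM per kb. No neighbors overlapped within a group. The tumor-type HK2 was thus the least abundant hexokinase of the list in these tumor cells before the knockdown as well.

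The balance between tumor-type and liver-type transporters was taken as the log2 ratio of the summed levels of SLC2A1 and SLC2A3 to that of SLC2A2, per exon length. It was 1.09, 0.90 and 1.09 for control, against -0.10, -0.25 and -0.23 for MTR4 KD (replicates 1, 2 and 3). Every control library thus had more of the tumor types together than of GLUT2, and every MTR4 KD library had less. The mean went from 1.03 ± 0.113 to -0.19 ± 0.0847 (SD, n = 3 per group), a difference of -1.22, with -1.32 among the libraries high in non-unique reads and -1.07 among those low in them. With the longest coding transcript the means were 1.74 and 0.53, so that the sign in MTR4 KD libraries depended on the length while the difference of -1.22 did not. No p-value is given for this ratio, and an exact permutation test of 3 against 3 libraries cannot go below 0.1. The ratio of SLC2A3 to SLC2A1, both tumor types, overlapped between the groups.

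As shares of the 6 transporters per exon length, SLC2A2 made up 30.1% ± 2.20 in control and 47.7% ± 1.57 in MTR4 KD libraries (SD, n = 3 per group). SLC2A3 made up 50.2% ± 0.584 and 33.3% ± 2.64, and SLC2A1 10.9% ± 0.597 and 8.46% ± 0.640. For each of these genes the shares of the groups did not overlap. Among the 3 hexokinases, the share of HK2 was 9.16%, 9.96% and 8.08% for control, against 5.003%, 4.74% and 4.68% for MTR4 KD (replicates 1, 2 and 3). All MTR4 KD libraries lay below the lowest control library, and the mean fell by 4.26 percentage points. The share of HKDC1 was 66.9% ± 1.19 in control and 73.9% ± 0.700 in MTR4 KD libraries, and that of HK1 24.0% ± 1.25 and 21.3% ± 0.576. Shares of 1 family add up to a whole, so these values do not show which gene changed in amount.

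**Figure D3:**
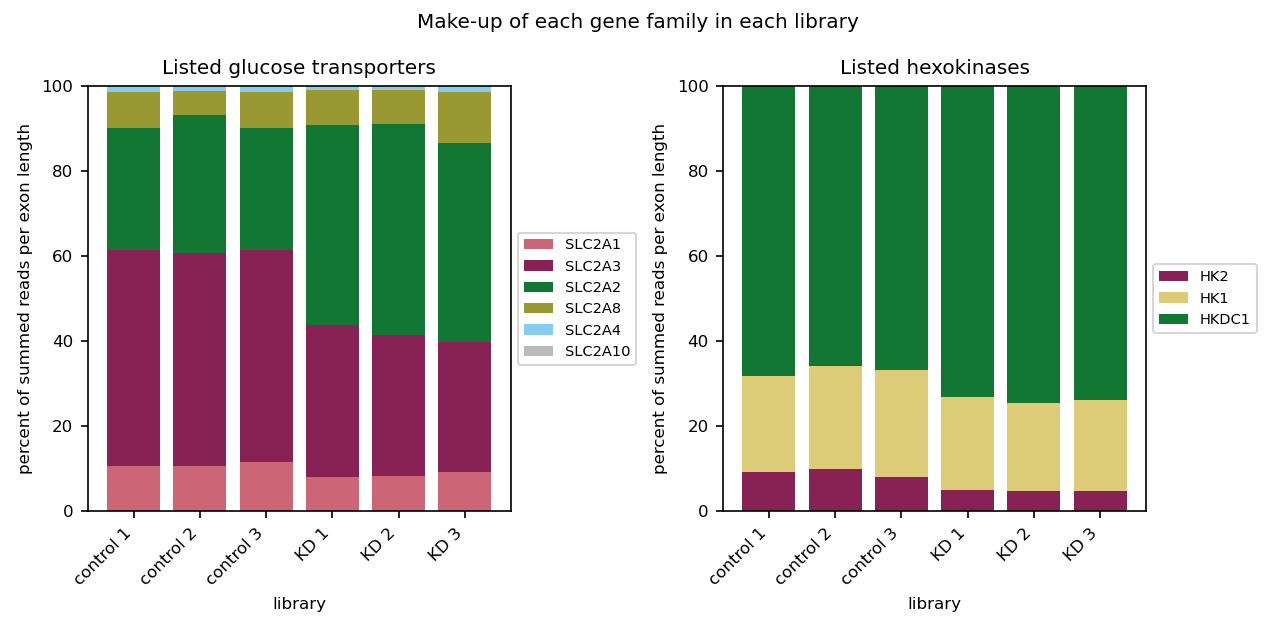
Share of each gene in the summed reads per exon length of the 6 listed transporters (left) and the 3 listed hexokinases (right), in percent, for every library. SLC2A2 takes 28.8% to 32.6% of the transporters in control and 46.7% to 49.6% in MTR4 KD libraries, and HK2 takes 8.08% to 9.96% and 4.68% to 5.003% of the hexokinases.

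The other members of the SLC2A family were a list of 8 genes, of which 6 passed the filter on low counts and 0 passed edgeR's test, with a median log2 fold change of 0.14. An unadjusted p under 0.05 was reached by 3 of the 6, 2 lower and 1 higher, where 9.84% and 8.93% of all tested genes were. DESeq2 called 2 lower, against 4.72% of its genes, and limma-voom 0, against 2.0%. SLC2A9, which carries urate, averaged 6.88 ± 1.30 CPM for control and 4.21 ± 0.103 CPM for MTR4 KD (SD, n = 3 per group, adjusted p = 0.0543, edgeR), and SLC2A6 averaged 17.1 ± 2.45 and 12.0 ± 1.34 CPM (adjusted p = 0.0962, edgeR). These were the 2 genes of this list called lower with the term for non-unique reads, where 10.8% of all tested genes were. SLC2A11, SLC2A12, SLC2A13 and SLC2A14 had log2 fold changes of 0.33, 0.16, 0.14 and 0.14, none past the test. SLC2A5, the fructose transporter, had 42 reads in control replicate 1 and 3 to 7 in every other library, and SLC2A7 had at most 2 reads.

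Of the other genes of glucose phosphorylation, ADPGK, which uses ADP in place of ATP, and GCKR had log2 fold changes of -0.17 and -0.15 and did not pass the test (adjusted p = 0.160 and 0.496, edgeR). ADPGK was lower with the term for non-unique reads, at -0.16 (adjusted p = 0.0283, edgeR). HK3 was not tested and had 2 reads in MTR4 KD replicate 1 and 0 in the other libraries, where a count of 0 allows up to 3 reads or 0.0414 to 0.0497 CPM (counting error only).

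The reverse step, release of glucose from glucose-6-phosphate, is carried out by the catalytic subunit G6PC1 in liver and kidney. G6PC1 (ENSG00000131482, chromosome 17) was at 205.5, 213.3 and 202.2 CPM in control replicates 1, 2 and 3, against 402.7, 420.1 and 383.3 CPM in the MTR4 KD replicates in that order. It rose by a log2 fold change of 0.96 (95% interval 0.82 to 1.10, adjusted p = 0.000588, edgeR), and was higher in 3 of 3 MTR4 KD libraries. The ubiquitous subunit G6PC3 and the glucose-6-phosphate transporter SLC37A4 had log2 fold changes of -0.17 and -0.16 and did not pass the test. Of the 6 genes of this list, which also held the sodium-coupled transporters, 4 were tested and G6PC1 was the single gene called. Of all tested genes, 1.48% were higher and 2.12% lower by the same rule. SLC5A1, the sodium-coupled transporter of the gut, had 0 reads in every library.

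Of 17 genes for the trafficking and turnover of glucose transporters, all were tested, 1 rose and 1 fell, where 1.48% and 2.12% of all tested genes did, and the median log2 fold change was 0.03. With the term for non-unique reads 5 were higher and 2 lower, where 9.43% and 10.8% of all tested genes were. The riser was ARRDC4, an arrestin that promotes the removal of GLUT1 from the cell surface, at 4.61 ± 0.366 and 6.80 ± 0.338 CPM for control and MTR4 KD (SD, n = 3 per group, log2 difference 0.56, adjusted p = 0.0348, edgeR). Its better-known relative TXNIP was at -0.05 on the log2 scale (adjusted p = 0.882, edgeR). TBC1D1, a Rab GTPase-activating protein that holds back GLUT4 vesicles, fell from 76.3 ± 0.979 to 60.2 ± 2.06 CPM (SD, n = 3 per group, log2 difference -0.34, adjusted p = 0.0218, edgeR). Both calls were lost with fewer libraries, at similar differences. Without any 1 library other than control replicate 2, the adjusted p was 0.0653 to 0.156 for ARRDC4 and 0.0501 to 0.125 for TBC1D1 (edgeR), at log2 differences of 0.50 to 0.59 and -0.36 to -0.31. The 3 VDAC genes, whose products anchor hexokinases at mitochondria, had a median of -0.14, and the glucose-responsive factors MLXIP, MLXIPL and MLX a median of 0.19. None of these 6 passed edgeR's test, DESeq2's or limma-voom's. An unadjusted p under 0.05 was reached by 3, all lower, where 9.84% of all tested genes were lower by that rule. With edgeR's term for non-unique reads 4 of the 6 passed, where 20.2% of all tested genes did in either direction. They were VDAC1 and VDAC2 at -0.13 and -0.22 (adjusted p = 0.0367 and 0.00258, edgeR), MLX at -0.17 (adjusted p = 0.0389, edgeR) and MLXIPL at 0.53 (adjusted p = 0.00042, edgeR).

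Of 17 genes of the steps after hexokinase, from GPI to lactate dehydrogenase, 8 fell and 1 rose, with a median of -0.40, where 2.12% and 1.48% of all tested genes did. The term for non-unique reads gave 13 lower and 1 higher, where 10.8% and 9.43% of all tested genes were. ALDOC, ENO2 and PFKP had the largest falls, with log2 fold changes of -1.75, -1.32 and -1.23. The count of genes that fell was 5 without control replicate 1, MTR4 KD replicate 1 or MTR4 KD replicate 2. It was 7 to 10 without any 1 of the others. Over all genes, 99, 101 and 85 were lower in the former runs and 118 to 503 in the latter, of 18483 to 18703 tested. ALDOC, ENO2 and PFKP passed the test each time, as did G6PC1.

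**Figure D4:**
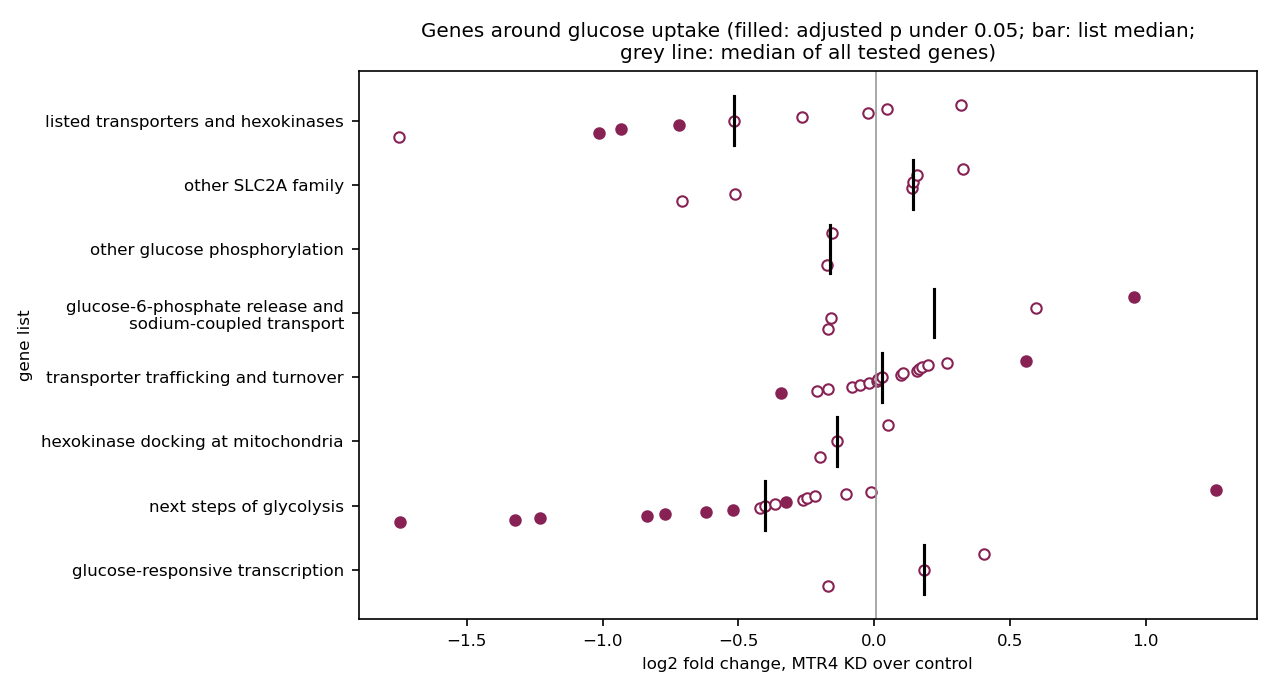
Log2 fold change of every tested gene of the 9 listed genes and of 7 surrounding lists, MTR4 KD over control, on the horizontal axis. Filled points have an adjusted p under 0.05, black bars are list medians, and the grey line is the median of all tested genes, 0.01. The listed genes and the next steps of glycolysis lie mostly to the left, with medians of -0.52 and -0.40.

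Over the 6 libraries, the protein-coding genes with a pattern most like that of SLC2A1, out of 9473 with a mean of at least 10 CPM, were CP, NEDD9 and DDIT4, with Pearson correlations of log2 CPM of 0.999, 0.998 and 0.997. CP, which encodes the copper oxidase ceruloplasmin, went from 303.8, 330.8 and 304.4 CPM in the control replicates to 106.2, 103.8 and 102.1 CPM in the MTR4 KD replicates. For HK2 they were CCT4, MCM10 and ATP1B1, with correlations of 0.999, 0.999 and 0.998. Their log2 fold changes of -0.17, -0.32 and -0.37 were smaller in size than that of HK2, since a correlation reads the shape of a pattern and not its size. The points share libraries and fall into 2 groups, so such values are a description only.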

How the data were processed

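RNA was measured by sequencing in 3 control and 3 MTR4 KD libraries of PLC/PRF5 cells. The authors deposited raw counts of reads per Ensembl gene, without normalization. The submitters' processing notes name HISAT2 2.1.0, HTSeq, DESeq2 and GRCh38, and the strand setting is not given in the sources used here. Entries not assigned to a gene made up 37.7% to 49.3% of each file and were left out of library sizes.

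The members and lists were chosen with earlier results of these data known. Genes were kept by edgeR 4.0.16 filterByExpr (minimum of 10 counts), scaled by TMM and compared by its quasi-likelihood test on condition alone, in R 4.3.3, with Benjamini-Hochberg adjustment. CPM are TMM-scaled counts, and 95% intervals are not adjusted for multiple tests. Symbols and exon lengths were taken from GENCODE v44 as mapped to GRCh37, positions and promoters from RefSeq GRCh38.p14. The fit was tested on simulated data that had a common spread for all genes and no difference in non-unique reads. That test cannot show how the fit handles such a difference. Named are the 9 genes, MTR4, all other SLC2A and phosphorylation genes, up to 3 called genes per direction of each other list, and 3 genes most like SLC2A1 and HK2. G6PC3, SLC37A4, SLC5A1, TXNIP, the VDAC genes and the MLX genes were named after their values were seen. Some genes of the surrounding lists are not reported here.

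Alternatives were other scalings and filters, DESeq2 1.42.0, limma-voom (limma 3.58.1), the replicate number as a block, a term for libraries over 30% non-unique reads, other gene lengths, and each library left out in turn.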

Additional observations from a re-analysis of the deposited data

How the results depend on the processing

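SLC2A1 passed the test in every alternative run, and SLC2A3 and HK2 in all except when certain single libraries were left out. With the term for non-unique reads 1944 genes (10.8%) were called lower and 1705 (9.43%) higher, against 383 (2.12%) and 267 (1.48%). Of the 9 listed genes 6 were then lower and 1 higher, and of the 52 tested genes of the surrounding lists 21 and 8. DESeq2's Wald test called 770 (4.72%) lower and 593 (3.64%) higher over all genes. It called 5 of the listed genes lower (SLC2A4 and SLC2A10 in addition) and 14 of the surrounding lists lower, against 9. With any library left out, the counts over all genes were between 85 and 503 lower and between 52 and 300 higher, lowest without control 1, control 3, MTR4 KD 1 or MTR4 KD 2, those of the listed genes between 1 and 3 lower, and those of the surrounding lists between 5 and 13 lower (5 without control 1, MTR4 KD 1 or MTR4 KD 2) and 2 and 3 higher. The listed genes had 1 call without control replicate 1 or without MTR4 KD replicate 2. The direction of SLC2A8 reversed, to 0.13, with the term for non-unique reads, and its values with a library left out were between -0.180 and 0.085. That of HKDC1 reversed to -0.007 with this term, and its values with a library left out were between -0.014 and 0.122. The causes were not tested.

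The transporter balance differed by -1.32 among the libraries high in non-unique reads and -1.07 among those low in them, and by -1.29 to -1.19 with any library left out. The share of HK2 differed by -3.46 percentage points with the longest coding transcript, by -5.09 among the libraries low in non-unique reads, and by -4.75 to -3.81 with any library left out.

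The correlation of same-numbered libraries' differences from their group means was -0.24, 0.325 and 0.352 for replicate numbers 1, 2 and 3. Control replicate 1 correlated best with MTR4 KD replicate 3. Between any control and any MTR4 KD library, the correlation was 0.325 to 0.36 where both had a similar share of non-unique reads. Otherwise it was -0.488 to -0.227. The correlations thus followed this share and cannot decide whether libraries with the same replicate number were paired. With the number as a block, 515 genes were lower and 342 higher. Of the listed genes 3 were lower and 1, SLC2A2, was higher (log2 fold change 0.32, adjusted p = 0.0474, edgeR). Few reads limit what SLC2A10 can show, and SLC2A10 was not tested with a filter of at least 1 CPM in 3 libraries.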
